A study of Mus musculus with 4 samples.

Results

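Oligodendrocytes were taken from a single-nucleus RNA-seq series of the mouse hippocampus as barcodes with at least 1000 UMIs (unique molecular identifiers, 1 per counted RNA molecule) and at least 1 UMI for each of at least 3 of the 5 genes Mog, Mag, Mobp, St18 and Prr5l. A barcode was left out if it had more than 1 UMI of Rbfox3, more than 1 of Slc17a7, Gad1 and Gad2 together, or more than 1 of Pdgfra. The rule found 3584 of the 43592 barcodes with at least 1000 UMIs. The nuclei were thus selected on measured counts of these marker genes, whose values are given only as a description.

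Nuclei came from adult mice, with 2 libraries of the Control genotype Kat6a-f/f and 2 of Kat6a-cKO, which carry NEX-cre together with Kat6a-f/f. All 4 libraries therefore carry the floxed Kat6a allele, and the Control mice are not labelled as carrying Cre. NEX is another name of Neurod6, a gene of forebrain excitatory neurons. Cre driven from it deletes Kat6a, which codes for a histone acetyltransferase, in those neurons and is not directed to oligodendrocytes. The labels do not say whether a library is 1 animal or several, so each p-value between genotypes takes the library, not the animal, as its unit.

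Oligodendrocytes wrap axons in myelin, a stack of membrane rich in cholesterol and galactolipids and held together by proteins such as MBP. Their program is driven by SOX10, OLIG2 and MYRF, and MYRF switches on myelin genes once precursors stop dividing. Cells that have just left the precursor state pass through a stage marked by Enpp6, Itpr2, Bcas1 and TCF7L2, a transcription factor of the Wnt pathway.

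Promoter windows of 3 markers of the rule are shown because these genes mark the class together. They come from the RefSeq table for GRCm38.p6 and run from 250 bases before to 50 bases after the start, 5′ to 3′ on the strand of the gene. Mog (myelin oligodendrocyte glycoprotein) lies on the minus strand at chr17:37023349-37023648, Mag (myelin-associated glycoprotein, 1 of its 3 listed start sites) on the minus strand at chr7:30914814-30915113 and Mobp (a small basic protein of compact myelin) on the plus strand at chr9:120149492-120149791. Capitals mark the SOX-type motifs ACAAAG and ACAATG and the MYRF-type motifs CTGGCAC and CTGGTAC, searched on both strands.
Mog: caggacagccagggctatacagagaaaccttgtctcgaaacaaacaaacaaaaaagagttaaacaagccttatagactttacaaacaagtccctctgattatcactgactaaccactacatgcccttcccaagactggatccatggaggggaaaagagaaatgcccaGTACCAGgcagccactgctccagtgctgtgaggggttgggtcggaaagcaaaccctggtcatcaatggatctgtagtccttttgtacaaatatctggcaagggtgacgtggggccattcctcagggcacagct
Mag: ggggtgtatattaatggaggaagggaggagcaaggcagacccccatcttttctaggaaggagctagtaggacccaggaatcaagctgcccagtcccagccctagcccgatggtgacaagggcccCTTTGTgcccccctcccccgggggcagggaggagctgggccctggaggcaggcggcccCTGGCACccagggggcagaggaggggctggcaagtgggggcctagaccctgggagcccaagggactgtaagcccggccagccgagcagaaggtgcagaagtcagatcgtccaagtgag
Mobp: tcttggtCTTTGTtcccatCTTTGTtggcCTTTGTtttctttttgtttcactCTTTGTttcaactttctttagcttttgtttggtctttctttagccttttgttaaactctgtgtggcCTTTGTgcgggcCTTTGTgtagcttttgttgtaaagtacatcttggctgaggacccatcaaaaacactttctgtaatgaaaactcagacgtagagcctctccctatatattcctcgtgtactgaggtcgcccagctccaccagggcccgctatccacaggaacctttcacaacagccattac
The Mog window held 1 match, to CTGGTAC on the other strand. The Mag window held 1 match to ACAAAG on the other strand and 1 to CTGGCAC. Of the other start sites listed for Mag, 1 window held the same 2 motifs and 1 held 0 matches. The Mobp window held 6 matches, all of them to ACAAAG on the other strand. Of 32851 RefSeq windows of this length, 18.7% held ACAAAG, 12.6% ACAATG, 5.01% CTGGCAC and 2.24% CTGGTAC. A match is a run of letters and not a measured binding site.

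The rule found 966 oligodendrocyte nuclei in Control 1, 831 in Control 2, 1035 in Kat6a-cKO 1 and 752 in Kat6a-cKO 2. As a share of barcodes with at least 1000 UMIs these were 8.77%, 7.65%, 8.98% and 7.38%. The shares averaged 8.21% ± 0.793 in Control and 8.18% ± 1.14 in Kat6a-cKO (SD, n = 2 libraries each), and the genotypes overlapped. The two-sided exact permutation test gave p = 1, in a design of 2 against 2 that cannot go below 0.33. Scrublet called 22, 21, 27 and 19 of the nuclei doublets, and they were kept. The Control libraries shared 1 barcode of the class, and the other pairs of libraries shared 0.

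Oligodendrocyte nuclei held few UMIs. The median was 3718 UMIs in Control 1 and 3477 in Control 2, against 3150 in Kat6a-cKO 1 and 3177 in Kat6a-cKO 2. Both Kat6a-cKO medians lay below both Control medians, with means of 3598 ± 170 and 3164 ± 19.1 UMIs (SD, n = 2 libraries each) and an exact permutation p of 0.33, the smallest possible. The level of empty droplets lay the same way: the most frequent UMI count in the hump of barcodes below the nuclei was 503 and 539 in Control, against 401 and 386 in Kat6a-cKO. The medians less these levels were 3215 and 2938 UMIs in Control, against 2749 and 2791 in Kat6a-cKO, which still did not overlap. Astrocytes (1683 nuclei) had medians of 4334 and 4133 UMIs in Control, against 3861.5 and 3806 in Kat6a-cKO, while excitatory neurons had 16919 to 17527 UMIs in the 4 libraries, with the genotypes overlapping.

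The low minimum sets how much of the class is seen. Of the nuclei, 174, 112, 121 and 64 had at least 5000 UMIs, which is 18.0% and 13.5% of the class in Control, against 11.7% and 8.51% in Kat6a-cKO. At the edges of the rule, 17 myelin sheath genes outside it were summed in CPM (counts per 1e+06 counts). The 7 nuclei under 1100 UMIs held 6087 CPM, from 45 counts. The 8 barcodes of 900 to under 1000 UMIs that met all other criteria held 10726 CPM, from 82 counts. Barcodes this shallow still needed 3 of the 5 markers, so these few were selected for oligodendrocyte RNA. Barcodes with 2 of the 5 markers numbered 243 and held 2760 CPM, against 7873 CPM in the 309 nuclei with 3 markers, 8630 CPM in the 1268 with 4 and 9806 CPM in the 2007 with all 5.

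Within the class the make-up of the RNA differed between bands of depth. The summed level of the 17 myelin genes was 7220 to 7562 CPM over the 4 libraries in nuclei of 2000 to under 3000 UMIs and 10122 to 11685 CPM in those of 5000 to under 10000 UMIs. The band of 1000 to under 2000 UMIs was thinly filled (21 to 57 nuclei per library). There the myelin level was 7655 to 9338 CPM, higher than in the next band in each library. The markers required are the same at every depth, and their part in this was not tested. Transcripts of ribosomal proteins went the opposite way, from 4442 to 6926 CPM down to 2457 to 3975 CPM from the band of 2000 to that of 5000 UMIs. Astrocyte markers summed to 236 to 359 CPM in the former band and 1068 to 1723 CPM in the latter, which thus carried more myelin and more astrocyte transcripts per UMI.

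**Figure D1:**
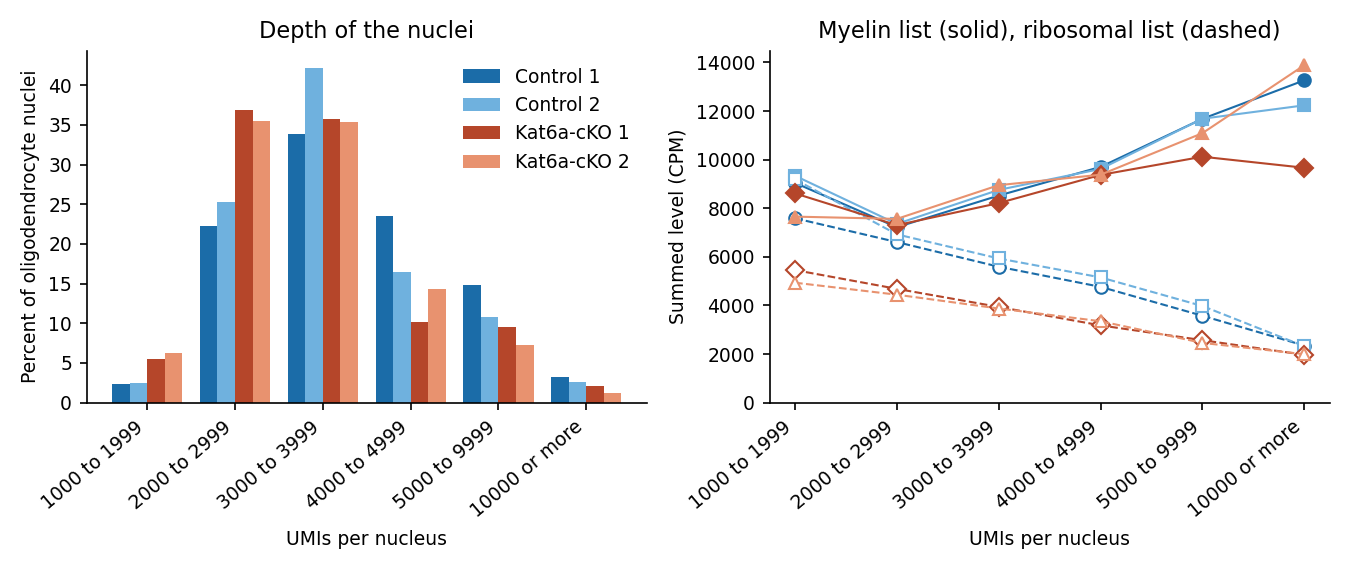
Left, percent of each library's oligodendrocyte nuclei in 6 bands of UMIs per nucleus, 1 bar per library. Right, summed level in CPM of 17 myelin sheath genes (solid lines, filled symbols) and of ribosomal protein genes (dashed lines, open symbols) in the same bands and colours; from 2000 UMIs on the ribosomal level is lower in each next band of each library, and the myelin level is higher except in Kat6a-cKO 1 at 10000 UMIs or more (9667 CPM, after 10122 CPM).

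Mobp had a UMI in 98.6% and 98.4% of Control nuclei. Mog, the outermost protein of the sheath, had a UMI in 83.5% and 80.7% of Control and 80.9% and 78.7% of Kat6a-cKO nuclei. Mag, an adhesion molecule of the membrane facing the axon, had a UMI in 78.9% and 75.8% of Control and in 64.1% and 69.9% of Kat6a-cKO nuclei. With each nucleus thinned to 1000 UMIs, Mag was found in 36.1% and 31.8% of Control and 30.7% and 34.0% of Kat6a-cKO nuclei, which overlapped. The mean number of Mag UMIs per thinned nucleus did not overlap, at 0.460 and 0.443 against 0.406 and 0.422.

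The label was checked against genes that the rule did not use. The 17 myelin sheath genes outside the rule, among them Mbp and Cnp, summed to 9789 and 9539 CPM in Control, against 8565 and 9117 CPM in Kat6a-cKO. Over the 4 libraries that is 17.1 to 20.6 times the level in astrocytes, 8.84 to 9.82 times that in oligodendrocyte precursors (905 nuclei) and 49.2 to 56.6 times that in excitatory neurons (15733 nuclei). Astrocytes and excitatory neurons were taken only with at most 1 UMI of Mog, Mag and Mobp together, and precursors with at most 1 of Mog and Mag. The folds are thus partly set by how these classes were chosen. Empty droplets, pooled from barcodes of 100 to under 900 UMIs, held 2275 to 2672 CPM of the 17 myelin sheath genes. At the UMI level of an empty droplet this amounts to 2.94% to 3.46% of the myelin counts in the nuclei.

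Other lists set the class apart from its precursors by role. Genes of mature subtypes, such as the glutamate receptor Grm3 and the prostaglandin synthase Ptgds, summed to 13.3 to 20.5 times the precursor level. Genes for ion, metabolite and iron handling, such as the exchanger Slc24a2 and the ferritin Fth1, summed to 7.22 to 8.50 times, and lineage transcription factors outside the rule, such as Sox10 and Myrf, to 3.48 to 4.19 times. Cholesterol and myelin lipid enzymes were at 3.66 to 4.04 times, and surface receptors and axon contact proteins, such as Erbb4 and Nfasc, at 1.76 to 1.96 times. Genes of newly formed oligodendrocytes were the exception, at 0.768 to 0.822 times the precursor level.

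Markers of other cells were low but not at 0. The neuron list, 12 genes outside the rule, summed to 2170 and 2773 CPM in Control, against 2140 and 1929 CPM in Kat6a-cKO, or 0.0897 to 0.131 times the level in excitatory neurons. Empty droplets at their own UMI level would give 74.7% to 85.5% of these neuron counts, 78.5% to 85.4% of the microglial counts and 67.5% to 73.1% of the ribosomal protein counts. The 10 astrocyte genes summed to 499 to 718 CPM, 0.0189 to 0.0278 times the level in astrocytes, and empty droplets would give 22.8% to 25.7% of that. The choroid plexus gene Ttr went against this reckoning: it had 25, 155, 4 and 5 counts in the class, where 467 to 907 CPM in the empty droplets would give more than was counted in every library. The barcodes of 100 to under 900 UMIs are thus no exact measure of the free RNA in a droplet with a nucleus.

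**Figure D2:**
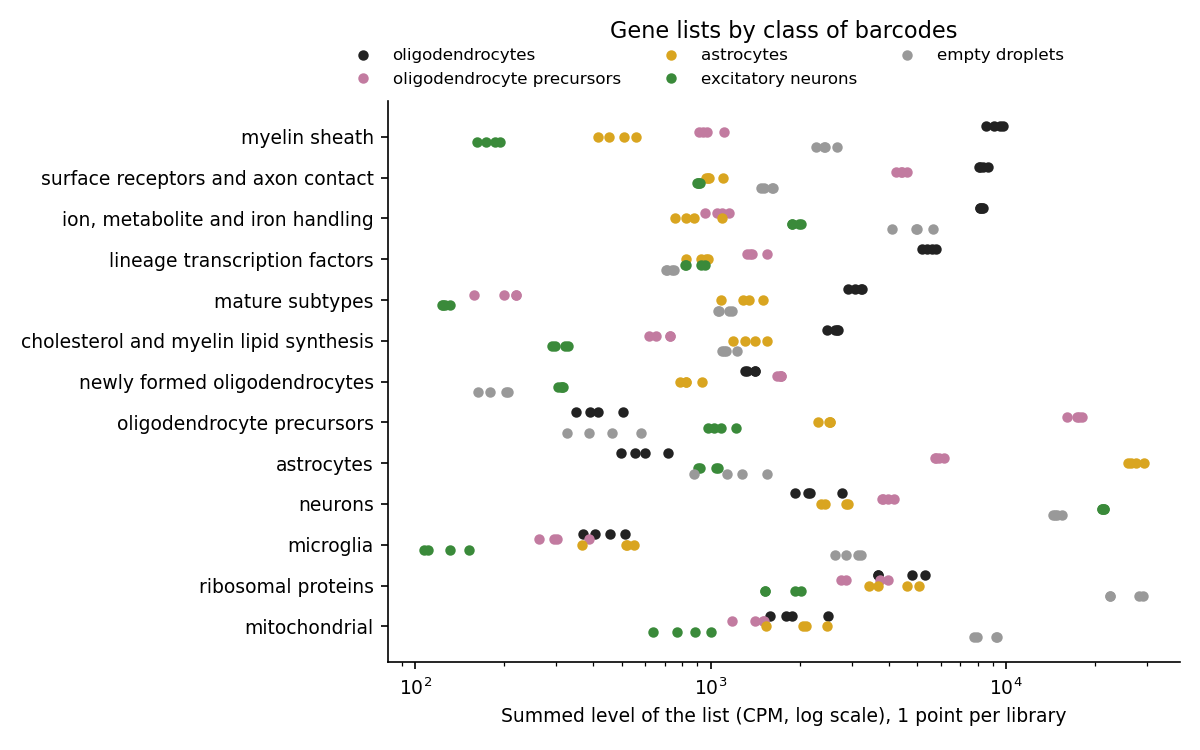
Summed level of 13 gene lists in CPM (log axis), 1 point per library, in oligodendrocytes, oligodendrocyte precursors, astrocytes, excitatory neurons and empty droplets. Myelin sheath genes were highest in oligodendrocytes (8565 to 9789 CPM), and ribosomal, mitochondrial and microglial transcripts were highest in empty droplets.

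Kat6a-cKO was compared with Control on counts summed per library over the class, 4036789 and 3311814 counts in Control, against 3740248 and 2613224 in Kat6a-cKO. The edgeR quasi-likelihood test with Benjamini-Hochberg adjustment called 0 of 11924 genes at an adjusted p under 0.05 (0%). At an unadjusted p under 0.05, 575 genes were lower (4.82%) and 284 higher (2.38%) in Kat6a-cKO. The Kat6a-cKO libraries were both lower than either Control library for 2222 genes (18.6%) and both higher for 2090 genes (17.5%). DESeq2 called 1 gene, Rpl34. The number of calls moved with the libraries used: leaving out a Kat6a-cKO library gave 33 calls (without replicate 1) or 45 (without replicate 2), and leaving out a Control library gave 2 (without replicate 1) or 6 (without replicate 2). Below, values by library are CPM after TMM scaling, and a log2 fold change compares Kat6a-cKO with Control and is given with its standard error (SE, n = 2 libraries per group).

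The targeted gene overlapped between genotypes in this class. Kat6a stood at 163.6 and 188.8 CPM in Control, against 162.9 and 185.7 CPM in Kat6a-cKO, a log2 fold change of −0.02 ± 0.12 (edgeR adjusted p 0.994), and its sign changed when Control 2 (0.08) or Kat6a-cKO 1 (0.08) was left out. The deposited counts are per gene, so the deleted exons are not seen on their own. In excitatory neurons, to which Cre is directed, Kat6a also missed the threshold (−0.09 ± 0.06, edgeR adjusted p 0.665). The value in oligodendrocytes therefore does not set them apart from the targeted class. Kat6a and its partners in the acetyltransferase complex, such as Kat6b, Brd1 and Meaf6, gave 6 tested genes. Of these, 0 had an unadjusted p under 0.05, where 4.82% of all genes were lower and 2.38% higher. The fold changes of the 6 ran from −0.09 to 0.07. The Cre entry of the files had 0 and 0 counts in the Control nuclei of the class and 2 and 3 in the Kat6a-cKO nuclei. Neurod6, the neuronal gene at which Cre sits, was at 41.1 and 49.3 CPM in Control, against 19.5 and 26.8 CPM in Kat6a-cKO, and empty droplets would give 77.9% to 90.2% of those counts.

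Of the structural genes of myelin outside the rule, 16 were tested, 3 had an unadjusted p under 0.05, all lower in Kat6a-cKO (18.8%, against 4.82% of all genes), and 6 lay below without overlap (37.5%, against 18.6% of all genes). The median log2 fold change of the list was −0.10, against 0.00 over all genes tested. It was also negative for those tested in the other classes, at −0.38 over 16 genes in excitatory neurons, −0.35 over 12 in astrocytes and −0.09 over 11 in precursors. Cnp, an enzyme of the cytoplasmic channels of myelin, was at 208 and 265 CPM in Control, against 162 and 180 CPM in Kat6a-cKO. Its log2 fold change was −0.47 ± 0.13 (edgeR adjusted p 0.379). Mal, a proteolipid that sorts myelin membrane, was at 650 and 636 CPM in Control, against 433 and 577 CPM in Kat6a-cKO (−0.35 ± 0.14), and Gjb1, the gap junction protein connexin 32, at 16.8 and 11.5 against 7.68 and 9.17 CPM (−0.77 ± 0.29). Mag, which the rule counts and which is given as a description, was at 533 and 517 against 405 and 465 CPM.

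Mbp, the basic protein of compact myelin, differed less. Mbp was at 2579 and 2181 CPM in Control, against 2523 and 2199 CPM in Kat6a-cKO, so that the groups overlapped, and its log2 fold change of −0.01 ± 0.13 turned positive under 4 alternatives. Mobp, counted by the rule, was at 2865 and 2746 against 3123 and 2939 CPM. Within the sheath list, then, Cnp, Mal and Gjb1 were below without overlap while Mbp was not.

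Of the lipid synthesis genes, 2 of 26 had an unadjusted p under 0.05, both lower, where 4.82% of all genes were, and the median log2 fold change was −0.01. Scd2, a desaturase of fatty acids, was at 389 and 377 CPM in Control, against 228 and 357 CPM in Kat6a-cKO (−0.39 ± 0.17), and the low value belonged to Kat6a-cKO 1. Fdps, an enzyme of the mevalonate route, had few counts (26, 21, 12 and 8) and a log2 fold change of −0.999 ± 0.379. Ugt8a and Fa2h, which make galactolipids with hydroxylated fatty acids, differed by 0.03 ± 0.11 and 0.09 ± 0.11.

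Of 11 lineage transcription factors tested outside the rule, 1 had an unadjusted p under 0.05 and was lower (9.09%, against 4.82% of all genes). Sox10 was at 88.8 and 88.4 CPM in Control, against 63.9 and 65.7 CPM in Kat6a-cKO. The groups did not overlap, and the log2 fold change was −0.45 ± 0.13 (edgeR adjusted p 0.379). Myrf, the activator of myelin genes, was at 212 and 175 against 220 and 203 CPM, overlapping between genotypes (0.13 ± 0.13), and Olig1 differed by −0.11 ± 0.17. The median of the list was 0.09.

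Genes of newly formed oligodendrocytes had a median log2 fold change of 0.15. Of 10 tested, 0 had an unadjusted p under 0.05, where 4.82% of all genes were lower and 2.38% higher. Above without overlap lay 3 of them, where 17.5% of all genes did. Fyn, a kinase that signals from axon contact, was at 277 and 266 CPM in Control, against 335 and 303 CPM in Kat6a-cKO (0.23 ± 0.11), without overlap. It missed the threshold here (edgeR adjusted p 0.729) and passed it in nuclei of 2000 to under 5000 UMIs alone, a range set with the results known (0.55, edgeR adjusted p 0.0443). Among mature subtype genes, 1 of 12 was lower at an unadjusted p under 0.05 (4.82% of all genes): Qdpr, a reductase that regenerates tetrahydrobiopterin, was at 45.9 and 48.4 CPM in Control, against 32.4 and 27.5 CPM in Kat6a-cKO (−0.65 ± 0.17, edgeR adjusted p 0.342). Its list had a median of −0.13. Surface receptors and axon contact proteins had a median of −0.08. Of 17 tested, 0 had an unadjusted p under 0.05, against 4.82% of all genes lower and 2.38% higher.

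Among ion, metabolite and iron handling genes, 1 of 12 was lower at an unadjusted p under 0.05, against 4.82% of all genes. Fth1, the heavy chain of the iron store ferritin, was at 654 and 860 CPM in Control, against 440 and 550 CPM in Kat6a-cKO (−0.62 ± 0.15, edgeR adjusted p 0.322), without overlap. The transferrin gene Trf was at 370 and 390 against 314 and 377 CPM (−0.14 ± 0.12), with overlap. The list's median was −0.11, and 5 of 12 lay below without overlap, against 18.6% of all genes.

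Wnt signalling is the pathway named in the title of the series. Of its 23 genes 15 were tested in oligodendrocytes, with a median log2 fold change of 0.06. Of the 15, 0 had an unadjusted p under 0.05, where 4.82% of all genes were lower and 2.38% higher. A count of 0 in 15 is near that share. Daam2, a formin that relays the Wnt signal in this lineage, was at 548 and 470 CPM in Control, against 600 and 586 CPM in Kat6a-cKO (0.22 ± 0.12, edgeR adjusted p 0.766), without overlap. Rspo2, a secreted enhancer of the pathway, had 13, 10, 16 and 7 counts. Tcf7l2 was at 276 and 276 against 257 and 321 CPM (0.06 ± 0.13).

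**Figure D3:**
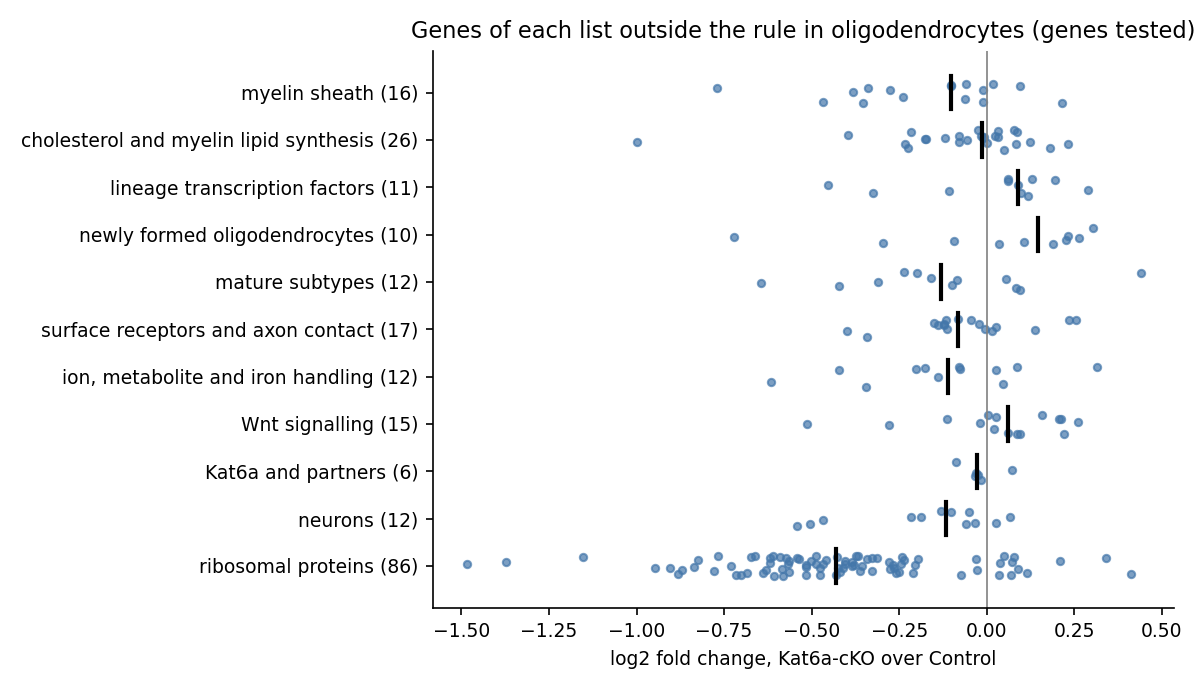
Log2 fold change of Kat6a-cKO over Control in oligodendrocytes for each tested gene of 11 lists, genes of the rule left out (number tested in brackets), with a bar at the median. Ribosomal protein genes sit mostly left of 0 (median −0.43), while the other 10 medians lie between −0.13 and 0.15.

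The genes of lowest p were mostly ribosomal. Rpl34 (chromosome 3, 130726831 to 130730398, GENCODE M21) was at 88.8 and 87.8 CPM in Control, against 28.0 and 41.3 CPM in Kat6a-cKO. Its log2 fold change of −1.37 ± 0.18 had the lowest edgeR adjusted p of all genes, 0.064. With Kat6a-cKO 2 left out, the pseudogene entry Rpl34-ps1 was at 7.71, opposite in sign to Rpl34 at −1.66. Whether reads moved between these 2 entries was not tested, so the size for Rpl34 is uncertain. Of the other 5 lowest in the lower direction, Rpl37 (−0.84 ± 0.14), Rpl38 (−0.95 ± 0.16), Rps21 (−0.77 ± 0.13) and Rpl37a (−0.61 ± 0.12) also code for ribosomal proteins. Usmg5, a small subunit of the mitochondrial ATP synthase, was at 112 and 116 CPM in Control, against 77.1 and 66.9 CPM in Kat6a-cKO (−0.66 ± 0.13). In all 6 the genotypes did not overlap, and all 6 missed the threshold.

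Most ribosomal protein genes had negative fold changes, 75 of the 86 tested. Of 101 genes with ribosomal protein symbols those 86 passed the filter on low counts, 48 had an unadjusted p under 0.05 and lower values (55.8%, against 4.82% of all genes), and 0 were higher at that threshold. Of the 86, 61 lay below without overlap (70.9%, against 18.6% of all genes), and their median log2 fold change was −0.43. The set includes 8 tested S6 kinase genes (Rps6k), which are enzymes and not part of the ribosome. Without them 60 of 78 lay below and the median was −0.48, while the kinases had a median of 0.05. Ribosomal protein genes have many near-identical copies, so single members are uncertain where reads were shared.

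The empty droplets of Kat6a-cKO also held less of these transcripts. There the set summed to 29095 and 28103 CPM in Control and to 22453 and 22438 CPM in Kat6a-cKO, and Rpl34 to 583 and 556 CPM against 235 and 384 CPM. In the nuclei the set summed to 4792 and 5301 CPM in Control, against 3692 and 3690 CPM in Kat6a-cKO. After subtraction of the empty-droplet profile at the empty-droplet level, an alternative chosen after seeing the data, 74 genes could be tested, 12 had an unadjusted p under 0.05 and lower values (16.2%, against 2.06% of all 10714 genes in that fit), and the median was −0.30. With a subtraction that used barcodes of 10 to 100 UMIs, 24 genes could be tested and the median was −0.05. That subtraction was scaled to the neuronal counts and amounted to 29.1% and 38.8% of counts in Control, against 27.7% and 23.9% in Kat6a-cKO. It left Rpl34, Rpl37 and Rpl37a with 0 counts in every library. Its median therefore leaves these genes out and cannot be set against that of the 86. In nuclei of 2000 to under 5000 UMIs, a range also set with the results known, the edgeR test gave 48 calls of 10972 genes (0.437%), 43 of them lower, and 14 were among the 85 ribosomal genes tested. The calls there also held Usmg5, Fth1, Neurod6, Nrgn, Snap25 and Cplx2, all lower. The 5 higher calls were Slc15a2, Fyn, Sgcz, Nckap5 and Gpc5, the last a gene of the astrocyte list. Beyond these fits, the part of empty-droplet RNA in the result was not tested.

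The summed level of mitochondrial genome transcripts was lower in the Kat6a-cKO nuclei too, but not in the empty droplets. The list summed to 1880 and 2490 CPM in Control, against 1792 and 1592 CPM in Kat6a-cKO, without overlap. Empty droplets held 7771 and 7937 CPM in Control, against 9325 and 9207 CPM in Kat6a-cKO, the opposite order, and would give 43.1% to 64.3% of the counts. Of the 37 mitochondrial genes 25 were tested, of which 6 had an unadjusted p under 0.05 and lower values (4.82% of all genes) and 1 had higher values (2.38%). The lowest edgeR adjusted p was 0.348, and the median log2 fold change was −0.01. After subtraction of the empty-droplet profile at the empty-droplet level, 16 genes of the list could be tested and the median was −0.73. Of these, 7 had an unadjusted p under 0.05 and lower values, against 2.06% of all genes in that fit. The level subtracted was 49.7% and 43.1% of the list's counts in Control, against 57.7% and 64.3% in Kat6a-cKO. Removing a larger part in Kat6a-cKO itself lowers the fold changes, so this median is not separate support for a lower level. The ribosomal RNA mt-Rnr2 was at 871 and 1118 CPM in Control, against 733 and 718 CPM in Kat6a-cKO (−0.45 ± 0.13, edgeR adjusted p 0.377). Mitochondrial transcripts are made outside the nucleus, and their part in the other results was not tested.

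The ribosomal protein set was also low in the other classes. Its median log2 fold change was −0.50 in excitatory neurons, −0.38 in astrocytes and −0.46 in precursors. In excitatory neurons edgeR called 15 of 20137 genes (0.0745%), and 7 of them were among the 92 ribosomal genes tested. In the test of the difference between oligodendrocytes and excitatory neurons the set had a median of 0.02 over 92 genes, and 0 of its genes passed. The sums share the libraries, and with them the empty droplets.

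The 6 genes of lowest p in the higher direction differed from these in their empty-droplet share, which was at most 24.2% (Itgb5 in Control 1), against at least 75.2% for the 6 lower genes. Lrmda was at 137 and 138 CPM in Control, against 195 and 196 CPM in Kat6a-cKO (0.51 ± 0.11, edgeR adjusted p 0.322), and empty droplets would give 1.17% to 1.62% of its counts. Aff1, a scaffold of the super elongation complex, was at 320 and 334 against 431 and 477 CPM (0.47 ± 0.11). Pde3b, a cyclic nucleotide phosphodiesterase, was at 24.5 and 25.5 against 46.1 and 40.1 CPM (0.79 ± 0.17). Slc15a2, a peptide transporter, was at 13.02 and 32.0 against 69.7 and 43.6 CPM (1.37 ± 0.32).

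The other 2 were Ikzf1, a transcription factor of blood and immune cells, at 4.34 and 7.05 against 14.3 and 13.8 CPM (1.31 ± 0.31), and the integrin Itgb5 at 9.96 and 12.6 against 22.5 and 21.02 CPM (0.96 ± 0.23). All 6 lay above without overlap and none passed the threshold in this fit. Ikzf1, Itgb5 and Inpp5d (8.68 and 11.7 against 18.9 and 18.7 CPM) are known from microglia, whose list of 9 summed to 405 and 513 CPM in Control, against 457 and 371 CPM in Kat6a-cKO, with overlap. The sizes moved with the nuclei admitted: at 2 of 5 markers Ikzf1 was at 0.32 and Itgb5 at 0.28, and without Scrublet doublets Itgb5 was at 0.18. The part of microglial RNA in these 3 genes was not tested.

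**Figure D4:**
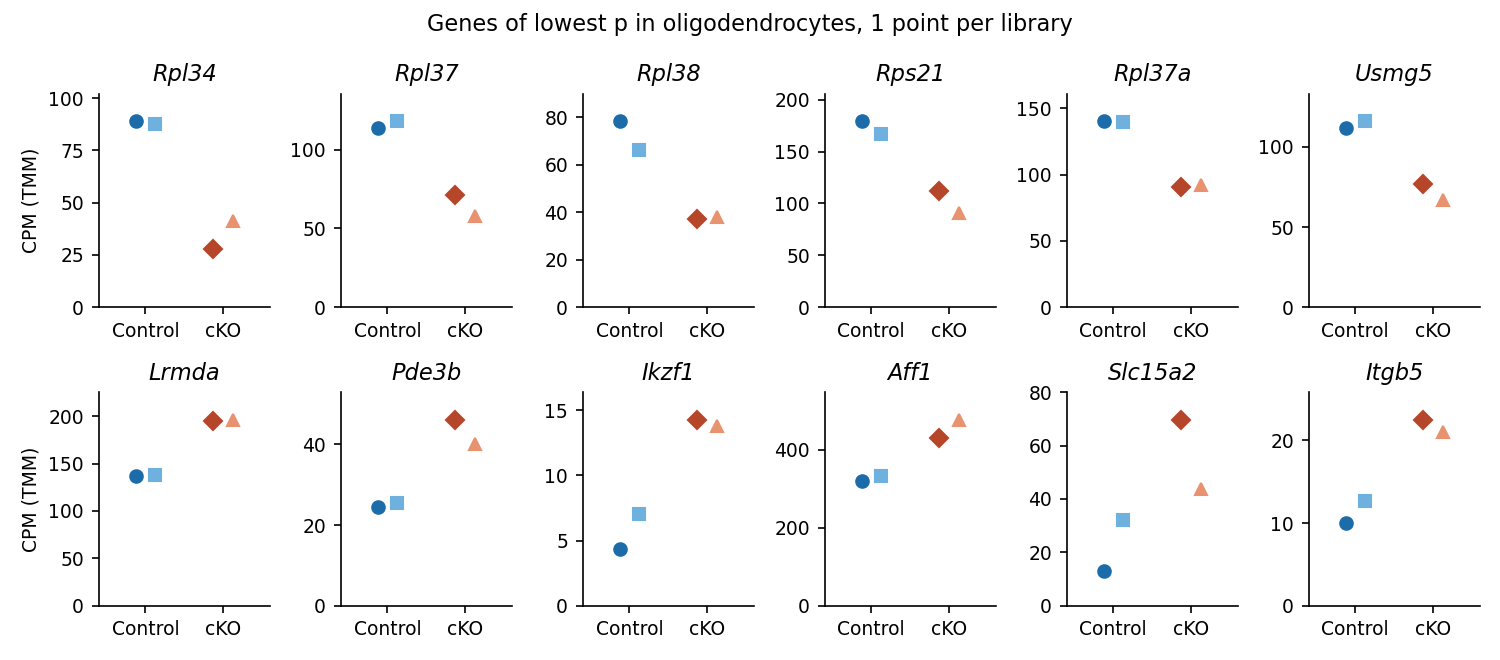
CPM after TMM scaling in each of the 4 libraries for the 6 genes of lowest p in each direction, Control on the left and Kat6a-cKO on the right of each panel. In all 12 the genotypes do not overlap, and all 12 missed the adjusted threshold.

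Markers of other cells were compared in the same fit. Of 12 neuronal genes, 3 had an unadjusted p under 0.05, all lower, where 4.82% of all genes were: Snap25 (472 and 627 against 379 and 394 CPM), Nrgn (345 and 376 against 231 and 265 CPM) and Cplx2 (231 and 258 against 177 and 176 CPM), all of them synaptic. Empty droplets would give 89.3% to 94.7% of the Snap25 counts. Of 10 astrocyte genes, 2 had an unadjusted p under 0.05, both higher, where 2.38% of all genes were: the glutamate transporters Slc1a2 (190 and 152 against 256 and 185 CPM, with overlap) and Slc1a3 (94.96 and 86.3 against 122 and 104 CPM). The astrocyte list summed to 599 and 499 CPM in Control, against 718 and 553 CPM in Kat6a-cKO, with overlap, and its part in other results was not tested.

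Ttr, the transthyretin of the choroid plexus, had the largest fold change of the fit, at 6.38 and 45.5 CPM in Control, against 1.10 and 1.91 CPM in Kat6a-cKO (−4.10 ± 0.91, edgeR adjusted p 0.322). Control 2 held 155 of its counts, and Control 1 held 25.

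Whether the genotype difference in oligodendrocytes departed from that in another class was tested in edgeR as a class-by-genotype term, each library being a block. Against excitatory neurons 11 of 19499 genes passed (0.0564%), 8 of them with a more negative difference in oligodendrocytes. The lowest p was that of Tmem163, a zinc transporter of vesicles, at 348 and 213 CPM before TMM scaling in Control oligodendrocytes and 190 and 186 CPM in Kat6a-cKO, and in neurons at 8.75 and 7.88 against 20.7 and 12.3 CPM. The difference was −1.54 ± 0.17 (edgeR adjusted p 6.37e-07). With the sums thinned to one total Tmem163 alone passed (edgeR adjusted p 0.00617), and with a mean of at least 10 CPM required in both classes 0 genes passed.

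Among the other 10 were Pdgfc, a growth factor of the PDGF family (102 and 95.1 against 203 and 109 CPM in oligodendrocytes, a difference of 0.73 ± 0.15), and Lpar1, a receptor for lysophosphatidic acid on oligodendrocytes (206 and 216 against 195 and 190 CPM, a difference of −0.89 ± 0.14). Lpar1 in neurons stood at 3.94 and 3.69 against 7.25 and 5.45 CPM, and without Kat6a-cKO 1 its edgeR adjusted p was 0.065. The value of Pdgfc in Kat6a-cKO came from replicate 1, and without that library its edgeR adjusted p was 0.999. Reln, an extracellular protein made by interneurons, had 60, 200, 28 and 38 counts in oligodendrocytes, and without Control 2 its edgeR adjusted p was 0.763.

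Against astrocytes 6 of 12827 genes passed (0.0468%). Of these, 4 were globin genes, which include near-identical copies and are uncertain where reads were shared, and all 4 were called lower in astrocytes. Hbb-bs was at 838 and 219 CPM in Control, against 82.6 and 43.5 CPM in Kat6a-cKO astrocytes, and at 76.3 and 42.0 against 96.5 and 60.1 CPM in oligodendrocytes, a difference of 3.38 ± 0.25 (edgeR adjusted p 2.82e-07). Dpp10, a partner of potassium channels, differed from both other classes, by −0.81 ± 0.15 from neurons and −1.22 ± 0.20 from astrocytes. In oligodendrocytes it was at 65.6 and 55.3 against 77.0 and 47.8 CPM.

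Nuclei of the class also differed among themselves. After thinning to 1000 UMIs, 1361 genes had at least 100 UMIs in every library, and for 84.2% of them the lowest ratio of variance to mean over the libraries was under 1.2, close to what sampling gives. The largest ratio was that of Frmd4a, a scaffold protein of cell polarity, at 12.5 to 23.1. The adhesion proteins Lsamp (5.58 to 6.96), Opcml (3.81 to 4.64) and Pcdh9 (3.52 to 3.67) followed, with the nuclear RNA Malat1 (4.73 to 5.74). Also among the 12 most spread were Nckap5, Tcf7l2 (3.02 to 4.17), the ribosomal RNA gene CT010467.1, Slc1a2 and Grm7.

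Some of these genes were high in the same nuclei. Over thinned nuclei of 1 library, Frmd4a and Tcf7l2 correlated with Pearson's r of 0.54, 0.65, 0.60 and 0.80, Frmd4a and Lsamp with 0.60, 0.56, 0.58 and 0.51, and Lsamp and Pcdh9 with −0.26 to −0.18. The points are the nuclei of 1 library, which share its free RNA, so these are descriptions with no test.

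A small set of nuclei carried most of the Tcf7l2 signal. At a minimum of 10 Tcf7l2 UMIs, chosen after the values were seen, 17, 15, 15 and 11 nuclei (58 in all) stood apart, while 731, 615, 787 and 569 nuclei had 0, and 31 nuclei were near it at 5 to 9 UMIs. Of the 58, 56 also had at least 10 UMIs of Frmd4a. They were deep nuclei, with medians of 11131, 8531, 8333 and 9710 UMIs against 3694, 3449, 3127 and 3159 in the rest. Both minimums of 10 UMIs are on counts before thinning, which deep nuclei reach more easily, so this depth is partly set by the cut. Their share was 1.78% ± 0.032 in Control and 1.46% ± 0.0095 in Kat6a-cKO (SD, n = 2 libraries each, exact permutation p 0.33, the smallest possible), and at 3 or more UMIs after thinning the shares were 1.24% and 1.08% against 1.26% and 1.06% (exact permutation p 1).

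These nuclei held a different set of lineage genes. The list of newly formed oligodendrocytes summed to 7904 to 11370 CPM over the 4 libraries, against 862 to 1045 CPM in the other nuclei and 912 to 1346 CPM in the other nuclei with at least 5000 UMIs. Itpr2, a calcium channel of the endoplasmic reticulum, was at 1623 to 1782 CPM against 27.3 to 59.6 CPM, and Enpp6, a choline phosphodiesterase, at 283 to 869 against 28.9 to 32.2 CPM. Fyn was at 1640 to 2919 against 154 to 229 CPM, Tns3 at 2620 to 3379 against 311 to 345 CPM and Bcas1 at 591 to 1656 against 324 to 381 CPM.

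Several genes of the mature state were low in the same nuclei, but not all. Of genes counted by the rule, Mog was at 59.1 to 170.8 CPM against 596 to 688 CPM. Prr5l was at 0 to 75.4 against 1520 to 1750 CPM. Mag, also counted by the rule, was higher in each library, at 438 to 758 against 393 to 523 CPM. Grm3 was at 104.0 to 169.6 against 1046 to 1246 CPM and Il33 at 0 to 9.84 against 242 to 265 CPM. Anln, a scaffold of myelin septins, was at 7.43 to 42.3 against 403 to 488 CPM. In the other nuclei with at least 5000 UMIs the gap was smaller: Grm3 was at 508 to 792, Il33 at 98.3 to 118.5 and Anln at 94.9 to 223 CPM. S100b of the mature subtype list went the other way, at 19.7 to 59.4 against 9.83 to 16.9 CPM. Of structural myelin genes, Mbp was higher (3531 to 4017 against 2129 to 2448 CPM) and Mobp lower (1153 to 2254 against 2860 to 3092 CPM). Tnr, an extracellular matrix protein in the precursor list, was at 2124 to 6536 against 33.5 to 81.8 CPM, while Pdgfra, which the rule limits, was at 0 to 5.29 against 1.04 to 3.81 CPM. Because the set was cut on Tcf7l2 counts after they were seen, these values are a description.

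**Figure D5:**
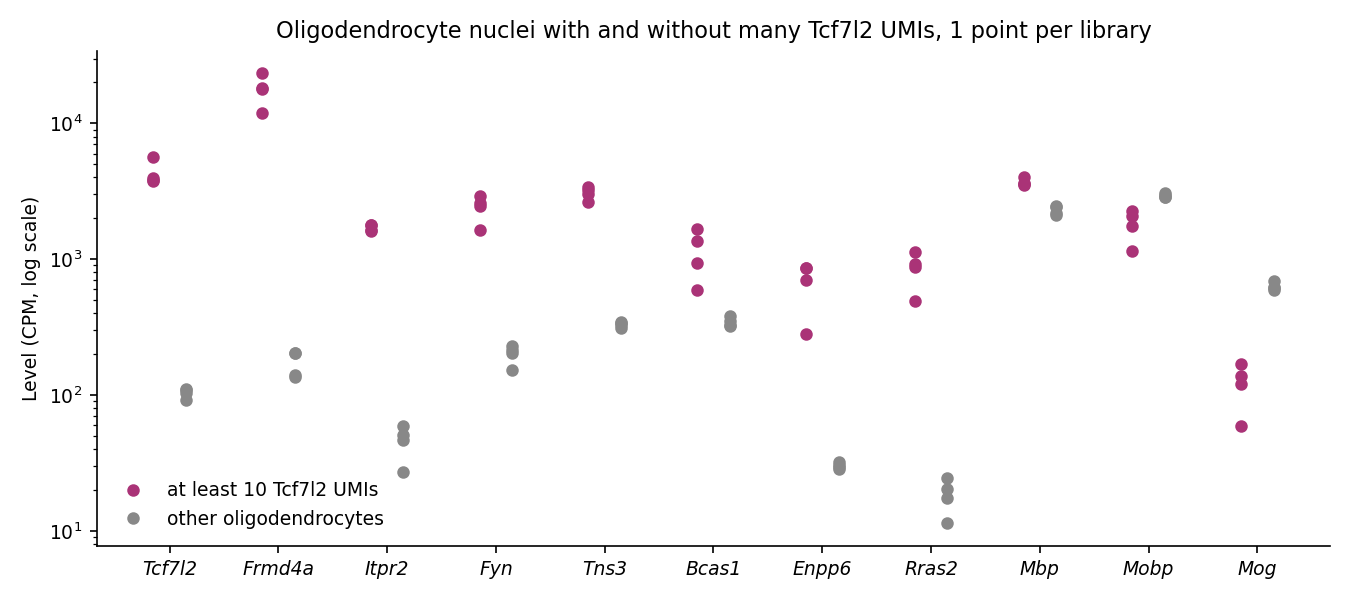
Level in CPM (log axis) of 11 genes in oligodendrocyte nuclei with at least 10 Tcf7l2 UMIs and in the other nuclei of the class, 1 point per library. Itpr2, Fyn, Tns3, Enpp6 and Rras2 are higher and Mog lower in the nuclei with many Tcf7l2 UMIs in each library.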

How the data were processed

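Per the labels' protocols, hippocampal nuclei were isolated on an iodixanol gradient and run on the 10x Genomics Chromium kit. The authors deposited raw UMI counts per gene and barcode for each library, empty droplets included, and the submitters' processing notes name mm10 and Seurat 4.0.1. The aligner, annotation release and counting strand are not given in the sources used here. Total counts per library were 186897245 and 183440076 (Control) and 177249737 and 171323466 (Kat6a-cKO). Of 55422 gene IDs, 55154 had a symbol and 54673 matched GENCODE M21 (GRCm38) by ID and version.

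Nuclei were chosen by the stated rule, with no clustering or integration. The oligodendrocyte members and the gene lists were chosen with earlier results of these data known. Counts were summed per library and class and compared by edgeR (version 4.0.16, R 4.3.3; quasi-likelihood test, TMM, filterByExpr, Benjamini-Hochberg adjusted p under 0.05), and with DESeq2 1.42.0 as an alternative. The procedure was checked on simulated counts. Shares and medians were compared by two-sided exact permutation tests (scipy 1.17.1). Doublets were called by Scrublet in scanpy 1.11.5 (expected rate 0.06). Nuclei were thinned to 1000 UMIs with random seed 1 for spread and shares. Astrocytes, precursors and excitatory neurons were chosen by like rules on their own markers, with limits on markers of other classes that include Mog and Mag. Genes named are the 6 of lowest p in each direction (0 genes passed), the 3 of highest mean CPM in each list, those the rule counts, Kat6a, Neurod6, the Cre entry and the 12 most spread. Other genes, such as list members with an unadjusted p under 0.05 and the genes of nuclei with many Tcf7l2 UMIs, were chosen after their values were seen. Some genes that the rule names are not reported here. Alternatives covered normalization, low counts, the UMI minimum, the number of markers, exclusion genes at 0, doublets, free RNA, thinning, the replicate block and each library left out. Genes with few counts per library, such as Fdps, have wide errors.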

Additional observations from a re-analysis of the deposited data

Results flagged for a closer look

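The results below are genes whose change with genotype differed between oligodendrocytes and another class by the edgeR interaction test. Values are the log2 fold change in oligodendrocytes minus that in the other class.

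Against excitatory neurons the difference was negative for Tmem163 (−1.54, adjusted p 6.37e-07), Lpar1 (−0.89, adjusted p 0.00192), Reln (−2.10, adjusted p 0.0135), Dpp10 (−0.81, adjusted p 0.0168), Fam169a (−1.42, adjusted p 0.0168), Hs3st5 (−2.33, adjusted p 0.02), Slit2 (−1.14, adjusted p 0.0289) and Tspan9 (−0.64, adjusted p 0.0343). It was positive for Folh1 (0.75, adjusted p 0.02), Zfp536 (0.62, adjusted p 0.0343) and Pdgfc (0.73, adjusted p 0.0343). The fold changes in oligodendrocytes and in neurons stood for Tmem163 at −0.57 and 1.00, Lpar1 at −0.11 and 0.75, Reln at −1.76 and 0.40, Dpp10 at 0.08 and 0.83, Fam169a at −1.34 and 0.08, Hs3st5 at −1.66 and 0.62, Folh1 at 0.21 and −0.58, Slit2 at −0.69 and 0.40, Tspan9 at −0.15 and 0.45, Zfp536 at 0.19 and −0.47 and Pdgfc at 0.70 and −0.11. In the single classes 0 of these 11 passed the threshold, so that the difference passed and its parts did not. Without Control 1, Fam169a, Slit2, Tspan9 and Zfp536 missed the threshold. Without Control 2, Reln, Dpp10 and Hs3st5 missed the threshold. Without Kat6a-cKO 1, Lpar1, Dpp10, Folh1, Slit2, Tspan9 and Pdgfc missed the threshold. Without Kat6a-cKO 2, Zfp536 missed the threshold.

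Against astrocytes the difference was positive for Hbb-bs (3.38, adjusted p 2.82e-07), Hba-a1 (2.98, adjusted p 3.33e-06), Hba-a2 (2.95, adjusted p 1.4e-05), Cfap299 (4.75, adjusted p 0.0044) and Hbb-bt (2.08, adjusted p 0.0264), and negative for Dpp10 (−1.22, adjusted p 0.0205). The fold changes in oligodendrocytes and in astrocytes stood for Hbb-bs at 0.42 and −3.02, Hba-a1 at 0.18 and −2.77, Hba-a2 at 0.30 and −2.62, Cfap299 at 0.43 and −4.36, Dpp10 at 0.08 and 1.35 and Hbb-bt at −0.19 and −2.20. All 6 passed the threshold in astrocytes and 0 in oligodendrocytes. Hbb-bt missed the threshold of the difference without Kat6a-cKO 1 (edgeR adjusted p 0.793), with thinned sums (0.285) and at a mean of 10 CPM in both classes (0.0548). The other 5 kept their calls with each library left out and with thinned sums, and Cfap299 was not tested at that mean. In empty droplets Hbb-bs was at 586 and 302 CPM for Control, against 753 and 504 CPM for Kat6a-cKO, with overlap.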

How the results depend on the processing

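The main test called 0 genes in oligodendrocytes. It called 97 with no filter on low counts, 48 at 2000 to under 5000 UMIs (chosen after seeing the data), 5 with sums thinned to one total, and 1 with DESeq2 size factors, with the DESeq2 Wald test, at a minimum of 2000 UMIs, at 2 or at 4 of 5 markers and without Scrublet doublets. Leaving out 1 library gave 2 to 45 calls, and there the lone library of a group is assumed to vary like the others. It called 0 under the other 6 alternatives. With the replicate number as a block it called 12, all lower, among them Rpl34, Rps21, Fth1 and Ttr. Nothing in the labels pairs libraries of one number, and same-numbered deviations correlated at r = 0.083 over 11924 genes. Against excitatory neurons, where 11 genes differed, 0 did at a mean of 10 CPM in both classes, 1 with thinned sums and 18 to 44 with 1 library left out. Against astrocytes, where 6 differed, 13 did with thinned sums, 8 with DESeq2 size factors, 4 at a mean of 10 CPM in both classes and 25 to 51 with 1 library left out. The cause was not tested. The difference in share (−0.03 percentage points, with p = 1 in the exact permutation test) turned to 3.86 at a minimum of 500 UMIs, 0.672 with exclusion genes at 0, 0.0535 without Scrublet doublets, stood at −0.68 at a minimum of 2000 UMIs and −0.636 at 5000, and ranged from −0.833 to 0.773 with 1 library left out (0.530 without Control 1). At 500 UMIs the share is of 51879 and 64915 barcodes for Control, against 19142 and 14328 for Kat6a-cKO. Of 23 named genes, Kat6a ranged from −0.12 to 0.081 with 1 library left out, turning positive without Control 2 (0.081) or Kat6a-cKO 1 (0.076), and Mbp from −0.13 to 0.11, turning positive without Control 1 (0.11) or Kat6a-cKO 2 (0.078). Mbp was also positive at a minimum of 5000 UMIs (0.0071) and at 2000 to under 5000 UMIs (0.0763). The other 21 kept their sign, and Rpl34 passed the threshold under 13 of 19 alternatives. Sizes moved by over 1.5 times in several. Subtraction at the empty-droplet level put Usmg5 at −0.11, Snap25 at −0.15, Rpl37a at −0.34, Nrgn at −1.01 and Rpl37 at −1.35. For Rpl34 it left 65 and 50 counts in Control, against 4 and 0 in Kat6a-cKO, too few for a fold change. Subtraction from barcodes of 10 to 100 UMIs put Usmg5 at −1.18 and Gjb1 at −1.36, and left Lrmda 0 and 105 counts in Control, against 410 and 352 in Kat6a-cKO. A minimum of 5000 UMIs put Neurod6 at −0.14, Rpl37a at −1.15, Rpl38 at −1.45, Lrmda at 0.95, Pde3b at 1.32 and Itgb5 at 1.57. Requiring 2 of 5 markers put Itgb5 at 0.28, Ikzf1 at 0.32 and Pde3b at 0.37, and leaving out Scrublet doublets put Itgb5 at 0.18. Sox10 was at −0.29 with exclusion genes at 0 and at −0.30 at 2000 to under 5000 UMIs. Leaving out Control 1 put Gjb1 at −0.46 and Slc15a2 at 0.84. Leaving out Control 2 put Cnp at −0.29, Snap25 at −0.30 and Slc15a2 at 2.13. Mal was at −0.16 without Kat6a-cKO 1 and at −0.58 without Kat6a-cKO 2.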
